A study of Homo sapiens with 18 samples.

Results

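The endoplasmic reticulum (ER) folding and quality control genes described here were chosen by name, with earlier results of these data known. The same holds for the other gene lists used below. Counts set beside those of all genes are therefore descriptions and not independent of the choice. The list held 35 genes of ER chaperones, the unfolded protein response, ER-associated degradation, protein translocation into the ER and transport to and from the Golgi. Of these, 32 had probe sets assigned to a single gene and were measured, out of 12750 genes on the array. DNAJB11, a co-chaperone of BiP, and SYVN1, the ubiquitin ligase of the degradation complex, had no probe set that could be used. SPCS2, a subunit of signal peptidase, had only probe sets shared with another locus. ERO1L of the array annotation is given by its present name, ERO1A.

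The cells were TC32 and TC71, 2 lines of Ewing sarcoma, a tumour of the young that arises in bone or soft tissue and depends on the fusion transcription factor EWS-FLI1. The study set sensitive cells against cells resistant to YK-4-279, a compound reported to keep RNA helicase A from associating with EWS-FLI1. Each line gave 3 arrays of parental cells treated with 3 µM YK-4-279 for 72 h, 3 arrays of clones selected for resistance and 3 arrays of untreated, sensitive parental cells. The clones (C1, C4 and CP in TC32, C3, C4A and C5 in TC71) had been kept in rising concentrations of up to 3 µM for 7 months. Whether the clones still received YK-4-279 at harvest, and whether replicates were separate cultures, is not given in the labels, so the tests measure only the spread between these arrays. No array of untreated cells kept for the same 7 months was analysed here. RNA was hybridised to Affymetrix HG-U133A 2.0 arrays, which carry probe sets for the 3′ end of transcripts.

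Proteins bound for the cell surface, secretion or the secretory organelles fold in the ER, where BiP and other chaperones hold unfolded chains and oxidoreductases form their disulfide bonds. When unfolded chains accumulate, the sensors IRE1, ATF6 and PERK are released from BiP. IRE1 splices XBP1 mRNA, and the resulting factor, together with the cleaved form of ATF6, switches on chaperone, degradation and transport genes. Many of these genes carry the ER stress element (ERSE) or its shorter form ERSE-II in their promoters, which ATF6 and XBP1 bind together with the CCAAT-binding factor NF-Y. PERK acts through the integrated stress response, which can also be set off from outside the ER.

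Promoters of 32 of the 35 genes were found in the RefSeq table (GRCh38.p14), and the 250 bases before each annotated gene start were searched on both strands. The ERSE, searched as CCAAT and CCACG with any 9 bases between them, stood in 5 of the 32 (15.6%), against 0.0806% of all 27305 promoters in the table. Its carriers were HSPA5, XBP1, CALR, CANX and HSP90B1, the last with 2 copies. ERSE-II, searched as ATTGG, 1 base of any kind and CCACG, stood in 3 of the 32 (9.38%), against 0.0513% of all promoters. They were HERPUD1, SDF2L1 and HYOU1, the last again with 2 copies. The shorter core TGACGTG of another element bound by these factors was present in HYOU1, overlapping its distal ERSE-II, and in KDELR3 (6.25% of the 32, against 1.71% of all promoters). A plain CCAAT box, which is part of both elements, was present in 23 of the 32 (71.9%) and in 33.0% of all promoters. Many genes of this response are known for these elements, so the higher shares follow from how the list was chosen. They are a description of the list and not a result of the arrays. The sequences below belong to the members whose values the results turn on, each written 5′ to 3′ on the strand of its gene, with ERSE or ERSE-II in capitals. HSPA5 spans chr9:125241344-125241593 (minus strand), XBP1 chr22:28800570-28800819 (minus), HYOU1 chr11:119057206-119057455 (minus), HERPUD1 chr16:56931892-56932141 (plus) and SDF2L1 chr22:21642052-21642301 (plus), all of GRCh38.p14. In HSPA5 and XBP1 the element reads along the gene and lies close to the start, with its last base 48 and 34 bases before it. In HYOU1 and SDF2L1 ERSE-II reads on the opposite strand, and in HERPUD1 along the gene.
HSPA5: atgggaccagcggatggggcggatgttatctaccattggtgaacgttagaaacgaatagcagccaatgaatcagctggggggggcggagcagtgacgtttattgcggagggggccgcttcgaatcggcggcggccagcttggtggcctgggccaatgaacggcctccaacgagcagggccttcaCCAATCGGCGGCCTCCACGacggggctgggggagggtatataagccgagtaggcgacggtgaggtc
XBP1: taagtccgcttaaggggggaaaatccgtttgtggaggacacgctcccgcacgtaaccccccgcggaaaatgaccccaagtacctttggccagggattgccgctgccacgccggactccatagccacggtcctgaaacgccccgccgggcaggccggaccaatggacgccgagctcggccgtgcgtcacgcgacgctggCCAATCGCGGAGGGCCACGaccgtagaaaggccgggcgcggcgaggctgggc
HYOU1: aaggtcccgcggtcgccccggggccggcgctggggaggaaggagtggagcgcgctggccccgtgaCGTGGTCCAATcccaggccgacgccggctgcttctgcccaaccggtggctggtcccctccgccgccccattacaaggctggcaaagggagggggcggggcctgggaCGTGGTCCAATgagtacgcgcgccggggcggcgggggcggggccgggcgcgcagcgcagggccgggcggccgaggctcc
HERPUD1: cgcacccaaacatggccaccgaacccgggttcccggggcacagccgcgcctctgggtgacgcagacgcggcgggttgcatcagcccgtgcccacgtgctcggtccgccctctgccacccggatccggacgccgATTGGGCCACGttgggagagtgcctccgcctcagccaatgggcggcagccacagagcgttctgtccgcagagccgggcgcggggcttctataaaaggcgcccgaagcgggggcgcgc
SDF2L1: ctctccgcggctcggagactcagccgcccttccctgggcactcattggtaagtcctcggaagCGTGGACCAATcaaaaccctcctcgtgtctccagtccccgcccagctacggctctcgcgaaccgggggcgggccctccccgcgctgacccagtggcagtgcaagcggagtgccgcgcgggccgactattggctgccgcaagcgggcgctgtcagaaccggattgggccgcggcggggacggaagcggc

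The deposited values are on the log2 scale with each probe set's own median over the 18 arrays at 0, so they carry no absolute level and genes cannot be ranked by abundance. For the same reason the labelled cell type could not be checked by the presence of its markers. A gene's value is the mean of its probe sets, and a change is the difference of group means with its standard error (SE) from a limma fit of all 6 groups. "Rose" and "fell" are kept for genes with a Benjamini-Hochberg adjusted p under 0.05 over all 12750 genes. No dim probe sets were filtered out, so a share of all genes above 0 or without overlap also counts very small changes. Each array averages a whole culture, so a change in every cell and a change in the share of cells could not be told apart. Some arrays stood apart from the rest of their group. TC71 72 h replicate 2 stood apart from replicates 1 and 3, which were the closest pair of all 18 arrays. Distances here are root mean square log2 differences over 3334 variable probe sets. TC32 parental replicate 1 was at 0.71, 0.74 and 0.83 from the TC71 parental arrays. From TC32 parental replicates 2 and 3 it was further, at 1.02 and 1.16. TC71 parental replicate 2 was at 0.69 and 0.72 from TC71 72 h replicates 1 and 3. It was further from the other TC71 parental arrays, at 0.75 and 0.78. The 3′ minus 5′ difference of the actin control probe sets, a measure of RNA quality, was 0.18, 0.41 and 0.70 in TC32 72 h arrays, against -0.27, -0.18 and -0.09 in TC32 parental arrays. In TC71 it was 0.07, -0.15 and 0.11 in 72 h arrays, against -0.30, -0.29 and -0.31 in parental arrays. The part of these differences in the results was not tested.

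**Figure D1:**
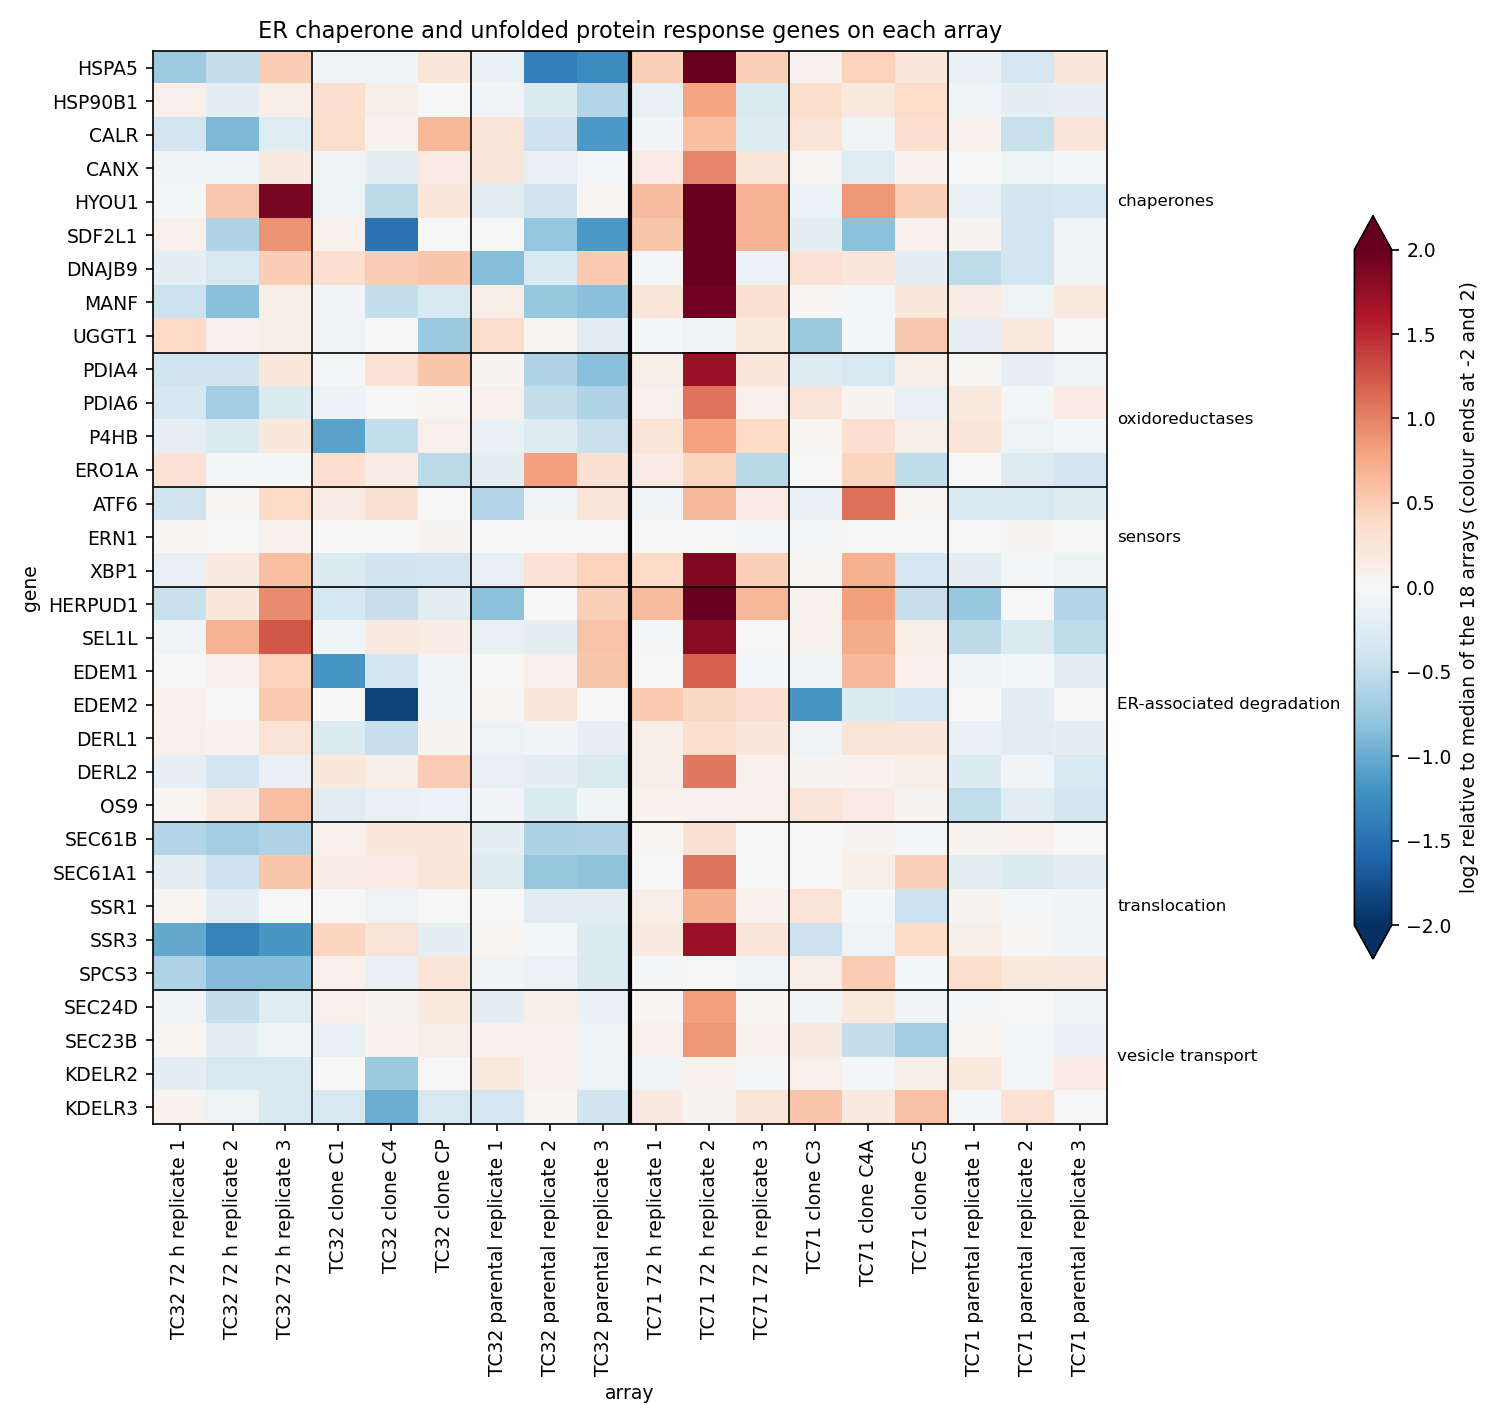
Heat map of the 32 measured genes (rows, grouped by role) on each of the 18 arrays (columns), on the log2 scale, where 0 is the median of the probe sets over all arrays. The column of TC71 72 h replicate 2 is the darkest red, with SDF2L1 at 3.09 and HYOU1 at 3.05, beyond the ends of the colour scale.

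In TC71 cells, 72 h of YK-4-279 went with higher values of most chaperone and degradation genes, but no member passed the test, and the size of the difference rested on replicate 2. The change was above 0 for 29 of 32 members, with a median of 0.47, against a median of 0.00 over all genes, of which 64.1% were above 0. All 3 treated arrays lay above all 3 parental arrays for 20 of 32 members, against 13.3% of all genes. No member had an adjusted p under 0.05, a threshold that 0.149% of all genes passed in this comparison. At an unadjusted p under 0.05 there were 10 members, all higher, against 5.35% of all genes. Without replicate 2 the median change was 0.22, and again no member passed.

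Replicate 2 set the scale of the response. On that array 14 of 32 members were at least 1 log2 unit above the TC71 parental mean, against 1 on each of replicates 1 and 3. Of all genes, 3.22% were that far above on replicate 2, and 1.57% and 1.87% on replicates 1 and 3. The member medians relative to the parental mean were 0.22, 0.94 and 0.22 on replicates 1, 2 and 3. Set against the mean of replicates 1 and 3, replicate 2 was at least 1 higher for 13 of 32 members (40.6%) and for 215 of 12750 genes (1.69%). The mean of replicates 1 and 3 was itself above the parental mean for 25 of 32 members (78.1%), against 45.9% of all genes.

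**Figure D2:**
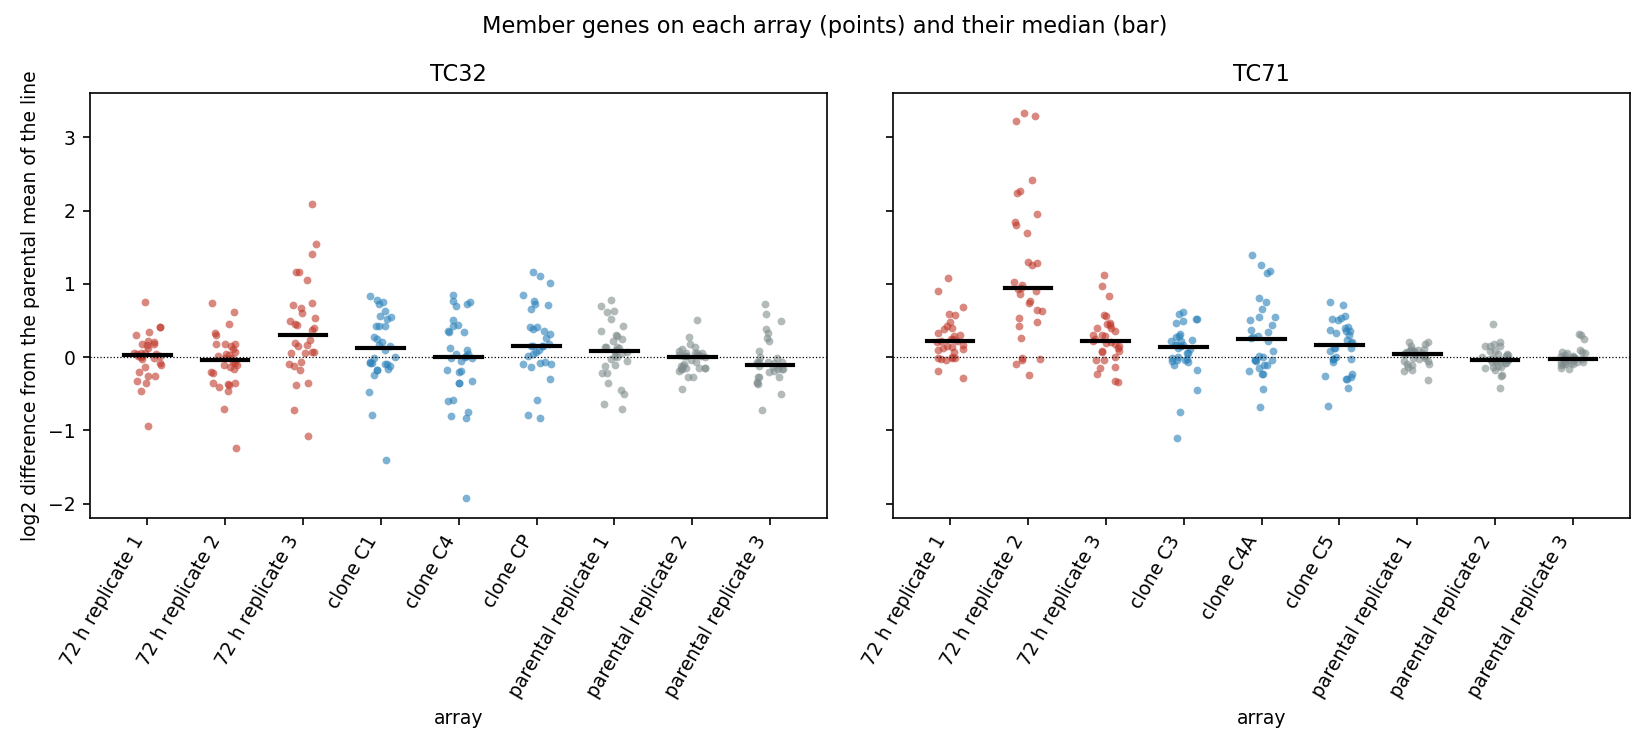
Each point is 1 of the 32 genes on 1 array, as log2 difference from the parental mean of its line (vertical axis), with the median as a bar, for TC32 (left) and TC71 (right). The median of TC71 72 h replicate 2 is 0.94, against 0.22 on each of the other 72 h arrays of that line.

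Among the chaperones, HSPA5 encodes BiP, the main ER chaperone. Its values were 0.48, 2.17 and 0.48 in TC71 72 h arrays, against -0.15, -0.34 and 0.22 in parental arrays. The treated arrays lay above the parental ones, and the change was 1.13 ± 0.45 (SE, limma adjusted p = 0.369). HYOU1, which loads fresh nucleotide onto BiP, was at 0.62, 3.05 and 0.69 in 72 h arrays, against -0.13, -0.37 and -0.35 in parental arrays. SDF2L1, a luminal partner of ER co-chaperones, was at 0.55, 3.09 and 0.70 in 72 h arrays, against 0.05, -0.38 and -0.07 in parental arrays. Both pairs of groups were fully separated, with changes of 1.74 ± 0.59 for HYOU1 (adjusted p = 0.271) and 1.58 ± 0.64 for SDF2L1 (adjusted p = 0.385). From replicates 1 and 3 alone, the differences from the parental mean were 0.57 for HSPA5, 0.94 for HYOU1 and 0.76 for SDF2L1. DNAJB9, a J-domain co-chaperone of BiP, reached 2.09 on replicate 2, while replicates 1 and 3 (-0.03 and -0.12) lay close to the parental range of -0.50 to -0.07. MANF, a secreted protein that binds BiP, was at 1.93 on replicate 2, against 0.25 and 0.31 on the others. The chaperone UGGT1, which marks misfolded glycoproteins for another folding round, did not share this pattern. It was at -0.03, -0.09 and 0.19 in 72 h arrays, against -0.17, 0.19 and -0.00 in parental arrays.

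The disulfide-forming enzymes were less far apart. All 4 changes were above 0, from 0.23 for ERO1A, the oxidase that recharges protein disulfide isomerase, to 0.78 ± 0.37 for the isomerase PDIA4 (adjusted p = 0.487). PDIA4 was at 1.72 on replicate 2, against 0.14 and 0.22 on replicates 1 and 3. Of the sensor genes, XBP1 was at 0.38, 1.85 and 0.47 in 72 h arrays, against -0.20, -0.02 and -0.09 in parental arrays, again without overlap (1.004 ± 0.355, adjusted p = 0.294). This probe set reads total XBP1 mRNA, and its splicing was not measured. ATF6 differed by 0.55 ± 0.31, and ERN1, which encodes IRE1, was nearly flat over all 18 arrays, from -0.02 to 0.07. Since the values carry no level, whether the only probe set of ERN1 detects its mRNA could not be told.

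The 7 genes of ER-associated degradation were all higher after 72 h in TC71. HERPUD1, which organises the degradation complex at the ER membrane, had the highest change of all members, 1.83 ± 0.57 (adjusted p = 0.230). Its values were 0.64, 2.85 and 0.67 in 72 h arrays, against -0.75, 0.01 and -0.59 in parental arrays, and it was the member at least 1 above the parental mean on all 3 treated arrays. SEL1L, the adaptor of the ligase in that complex, was at -0.04, 1.80 and 0.00 in 72 h arrays, against -0.53, -0.29 and -0.50 in parental arrays. OS9, EDEM2 and DERL1 differed from this picture, since replicate 2 did not carry most of their change. The lectin OS9, which hands glycoproteins to the ligase, was at 0.08, 0.07 and 0.10 in 72 h arrays, against -0.49, -0.20 and -0.36 in parental arrays (0.43 ± 0.12, adjusted p = 0.176). For DERL1, part of the channel that returns proteins to the cytosol, the values were 0.13, 0.35 and 0.22 in 72 h arrays, against -0.13, -0.21 and -0.19 in parental arrays (0.41 ± 0.12, adjusted p = 0.186). EDEM2 was at 0.52, 0.41 and 0.33 in 72 h arrays, against -0.00, -0.18 and 0.00 in parental arrays. Without replicate 2 the changes were 0.44 for OS9, 0.49 for EDEM2 and 0.35 for DERL1.

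Translocation and transport genes were divided. SSR3, of the translocon-associated complex, was at 0.19, 1.72 and 0.24 in 72 h arrays, against 0.12, 0.03 and -0.05 in parental arrays (0.68 ± 0.34, adjusted p = 0.516). SPCS3, a subunit of the signal peptidase that trims entering proteins, was lower, at -0.04, -0.01 and -0.08 in 72 h arrays, against 0.35, 0.20 and 0.18 in parental arrays. The groups did not overlap, and the change was -0.29 ± 0.13 (adjusted p = 0.473). SEC61B, a subunit of the Sec61 channel, differed by 0.07, with 0.04, 0.31 and -0.00 in 72 h arrays, against 0.05, 0.07 and -0.00 in parental arrays. KDELR2, a receptor that returns chaperones from the Golgi, was at -0.08, 0.07 and -0.02 in 72 h arrays, against 0.19, -0.03 and 0.16 in parental arrays. When quantile normalization was applied again to the deposited values, 5 members passed in this comparison. HYOU1 (1.62, limma adjusted p = 0.0371), OS9 (0.56, adjusted p = 0.0147), DERL1 (0.49, adjusted p = 0.0150) and DERL2 (0.63, adjusted p = 0.0465) were higher, and SPCS3 (-0.43, adjusted p = 0.0445) was lower.

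**Figure D3:**
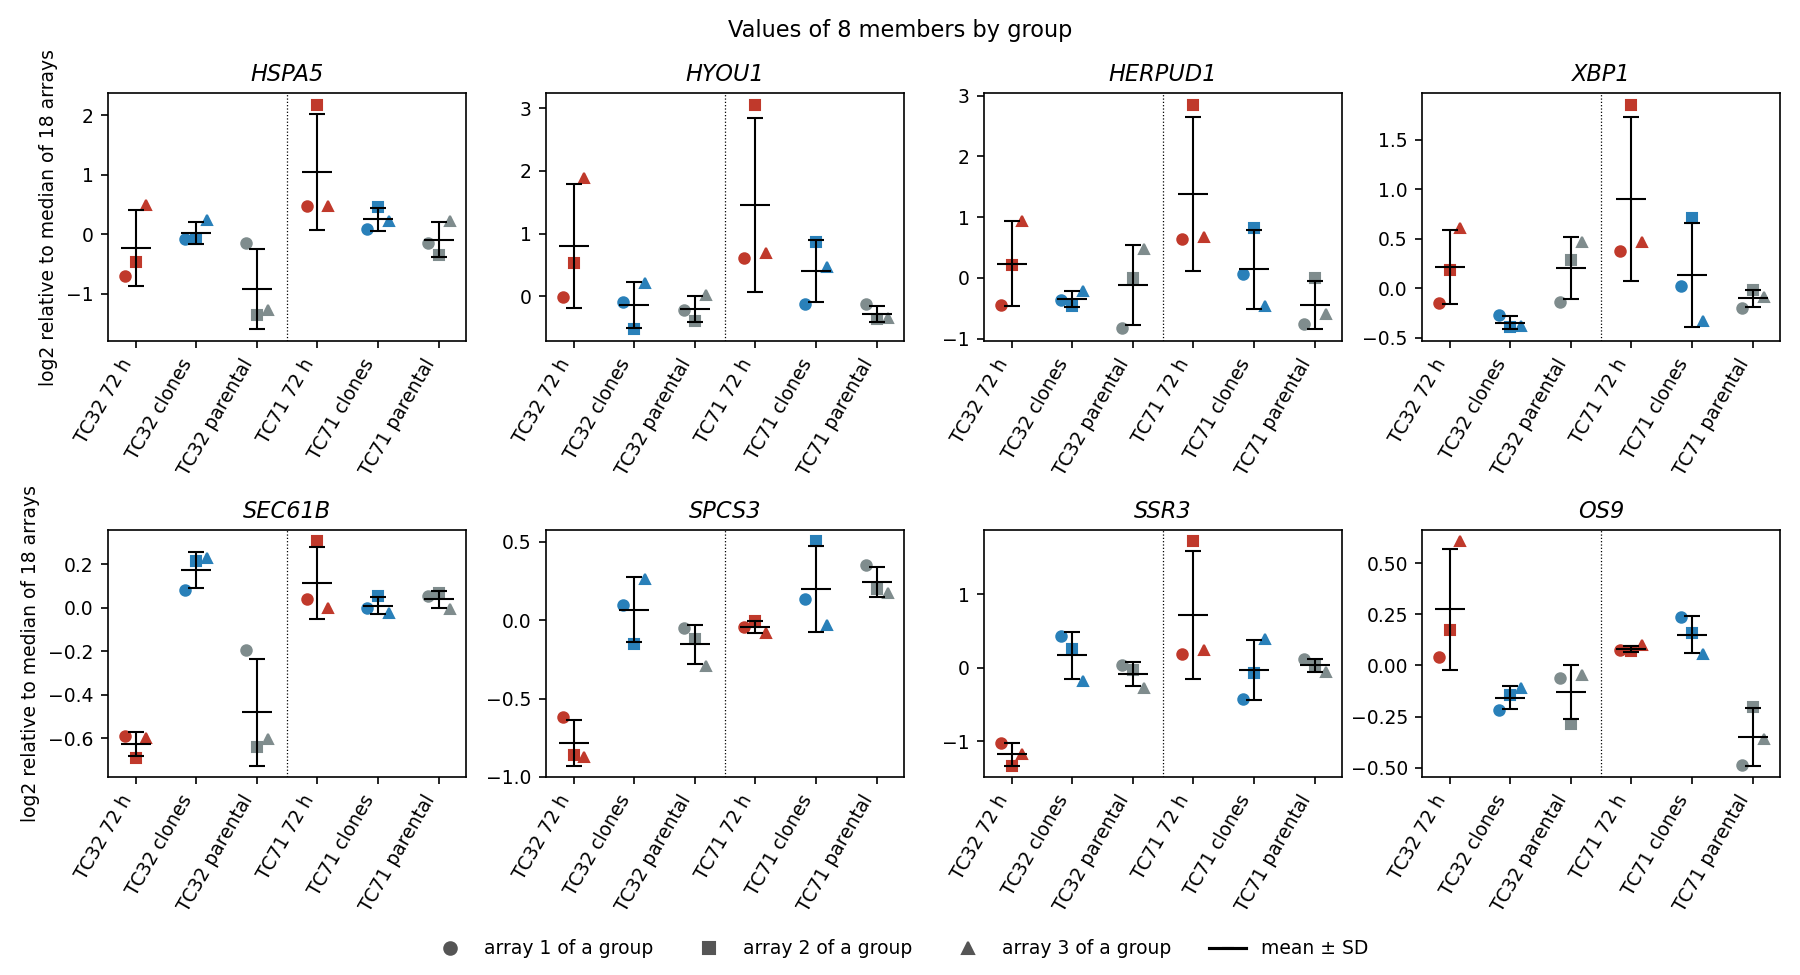
Values of 8 members by group, on the log2 scale with the median over all 18 arrays at 0 (vertical axes differ). Symbols are single arrays, in the order of the replicate or clone number, and lines are means ± SD of 3 arrays. In HSPA5, HYOU1, HERPUD1 and XBP1 a single TC71 72 h array lies far above the rest, while SPCS3 and SSR3 are low on all 3 TC32 72 h arrays.

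In TC32 cells, SPCS3 fell between parental and 72 h arrays, a call that depended on single arrays, and no member rose. Of 32 members 1 passed the test (3.13%), against 2.2% of all genes. SPCS3 was at -0.62, -0.86 and -0.87 in 72 h arrays, against -0.05, -0.12 and -0.29 in parental arrays. The groups were well apart, and SPCS3 fell by 0.63 ± 0.13 on the log2 scale (1.55-fold, limma adjusted p = 0.0294). Leaving out single arrays gave adjusted p values of 0.0153 to 0.133, and the call was lost without parental replicate 1 or 2 or 72 h replicate 2 or 3. The changes kept their sign, and both of its probe sets were lower (-0.50 and -0.76). In a fit that kept only its probe set at -0.50, the call was lost (limma adjusted p = 0.166). SSR3 was lower by more but varied more across the study, at -1.02, -1.33 and -1.17 in 72 h arrays, against 0.04, -0.03 and -0.28 in parental arrays. Its change of -1.08 ± 0.34 had an adjusted p of 0.117 in the limma fit of all groups and of 0.0406 in a fit of these arrays alone, where SPCS3 had 0.0735. KDELR2 was also lower on all 3 treated arrays (-0.20, -0.32 and -0.32, against 0.20, 0.07 and -0.10 in parental arrays, adjusted p = 0.339). SEC24D, of the coat of vesicles leaving the ER, was at -0.05, -0.47 and -0.24 in 72 h arrays, against -0.18, 0.12 and -0.13 in parental arrays.

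The chaperones of TC32 had a median change of 0.21, with wide overlap between arrays. HYOU1 was at -0.02, 0.54 and 1.89 in 72 h arrays, against -0.22, -0.39 and 0.02 in parental arrays (1.004 ± 0.587, adjusted p = 0.514). HSPA5 was at -0.71, -0.47 and 0.49 in 72 h arrays, against -0.15, -1.36 and -1.27 in parental arrays. For SDF2L1 the values were 0.10, -0.60 and 0.90 in 72 h arrays, against -0.01, -0.77 and -1.15 in parental arrays. In these genes 72 h replicate 3 was the highest treated array, and parental replicate 1 the highest parental array for HSPA5 and SDF2L1. Replicate 3 had 6 members at least 1 above the parental mean (HYOU1, SDF2L1, HSPA5, SEL1L, SEC61A1 and HERPUD1), and the other 72 h arrays had none. Of all genes, 3.69% were that far above on replicate 3, and 1.3% and 2.6% on replicates 1 and 2. Replicate 3 also had the highest actin 3′ minus 5′ difference of the 18 arrays, 0.70. Without it the median change of the members was -0.03, against 0.12 with all arrays.

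Other members were mixed in TC32 after 72 h. SEL1L was at -0.06, 0.70 and 1.24 in 72 h arrays, against -0.14, -0.20 and 0.57 in parental arrays, and SEC61A1, the channel itself, was at -0.19, -0.42 and 0.55, against -0.26, -0.75 and -0.81 in parental arrays. ERO1A was at 0.29, -0.03 and -0.04 in 72 h arrays, against -0.18, 0.82 and 0.31 in parental arrays. OS9 was higher, at 0.04, 0.17 and 0.61 in 72 h arrays, against -0.06, -0.28 and -0.05 in parental arrays (0.40 ± 0.12, adjusted p = 0.105), and passed when 72 h replicate 1 was left out (adjusted p = 0.0254). In total 20 of 32 changes were above 0 (41.4% of all genes were), and 2 members were higher and 3 lower with no overlap of arrays, against 10.4% and 9.85% of all genes.

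The response to 72 h of treatment was compared between the lines through the interaction, the TC32 change minus the TC71 change. No member passed, while 0.376% of all genes did, and 2 members had an unadjusted p under 0.05, as did 8.0% of all genes. SSR3 differed most, by -1.77 ± 0.47 (adjusted p = 0.190), being lower in treated TC32 and higher in treated TC71 cells. DERL2, a partner of DERL1, was the other, at -0.65 ± 0.28 (adjusted p = 0.588). For HERPUD1 the difference was -1.48 ± 0.80 (adjusted p = 0.741), and for XBP1 it was -0.99 ± 0.50 (adjusted p = 0.696). The median over the members was -0.43 and became -0.09 when TC71 72 h replicate 2 was left out.

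**Figure D4:**
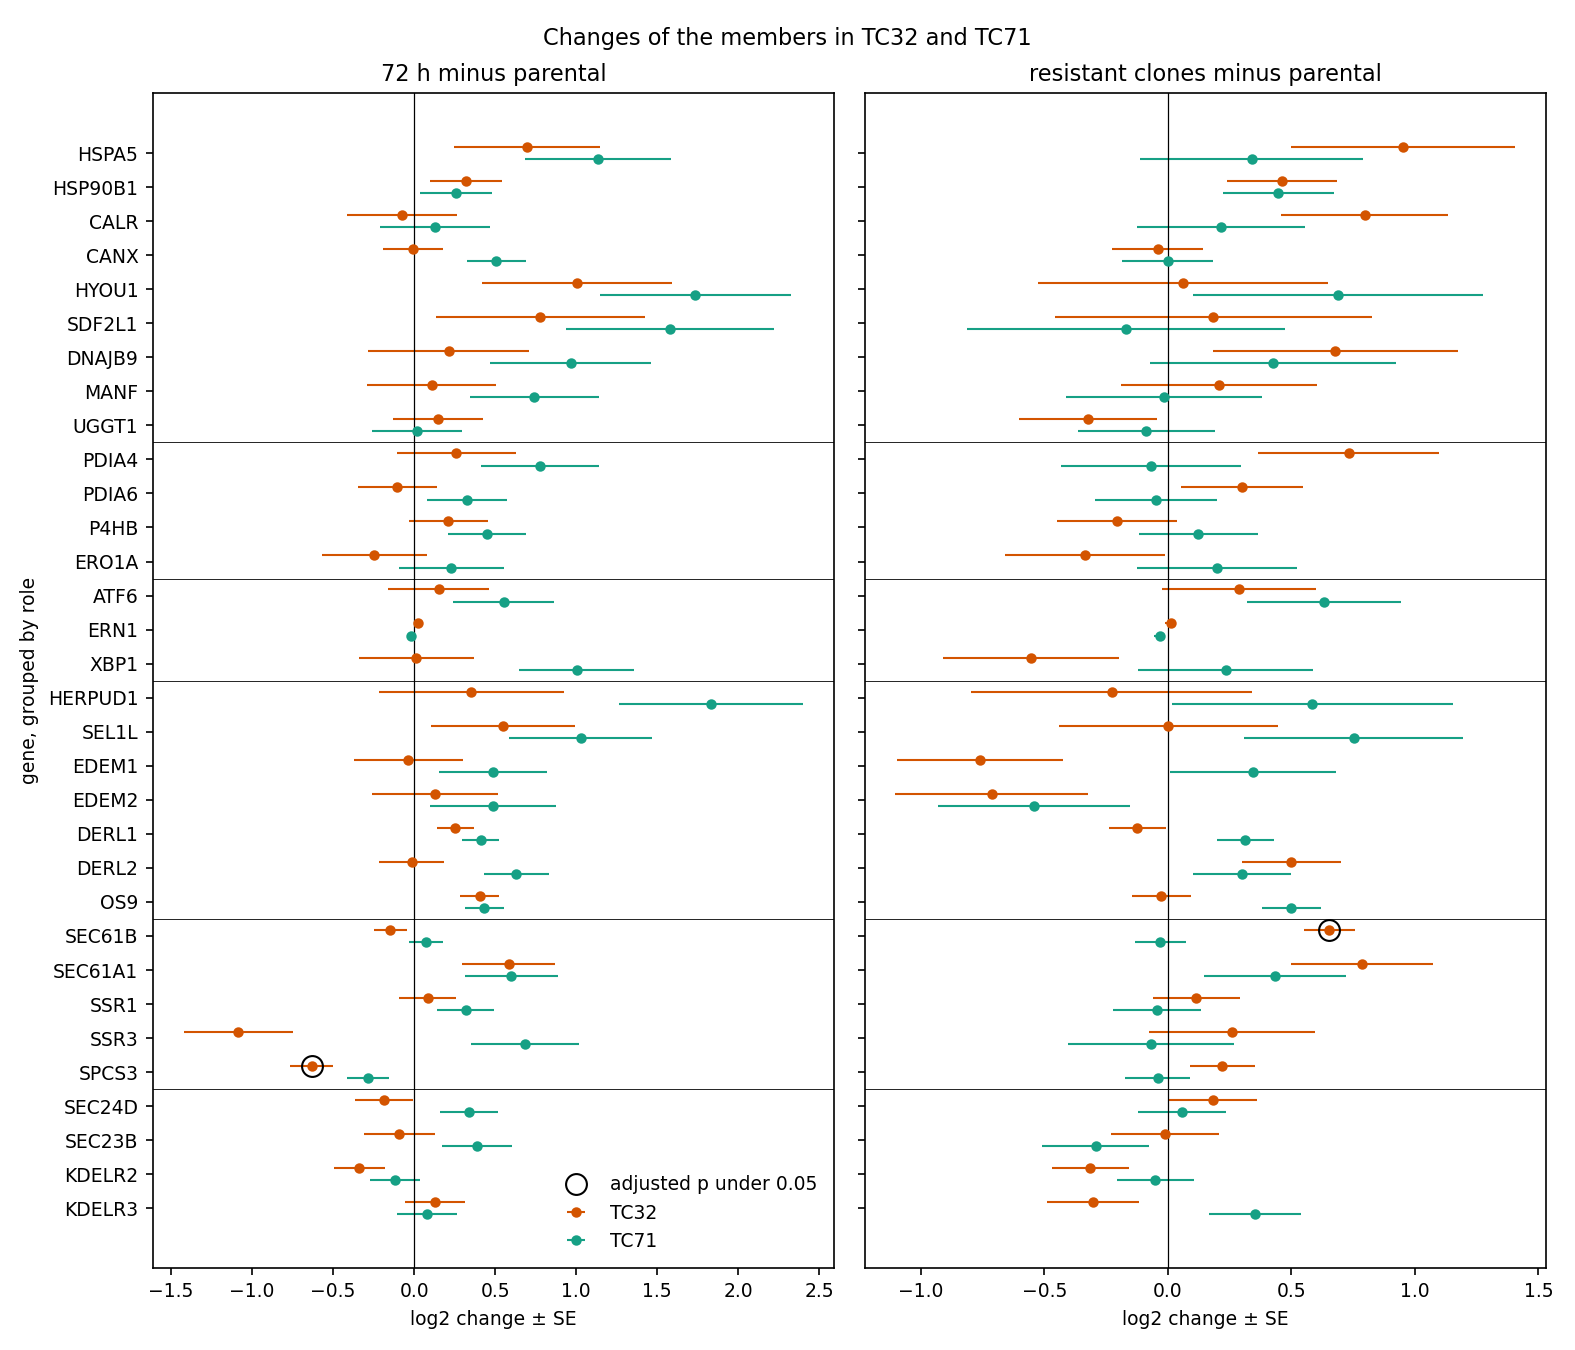
Log2 changes ± SE (horizontal axes) of the 32 genes (rows, grouped by role) in TC32 and TC71, for 72 h minus parental (left) and resistant clones minus parental (right), from the limma fit of 18 arrays. Rings mark the members with an adjusted p under 0.05, SPCS3 at -0.63 and SEC61B at 0.65, both in TC32.

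Resistant TC32 clones had more SEC61B, and no other member passed. SEC61B was at 0.08, 0.21 and 0.23 in clones C1, C4 and CP, against -0.20, -0.64 and -0.60 in parental arrays. All clones lay above all parental arrays, and SEC61B rose by 0.65 ± 0.10 on the log2 scale (1.57-fold, limma adjusted p = 0.00402). In a fit of these 6 arrays alone its adjusted p was 0.134. The 1 call among 32 members (3.13%) stood against 6.31% of all genes. The median change was 0.09 (0.00 over all genes), and 19 of 32 changes were above 0 (60.8% of all genes).

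SEC61A1, the partner of SEC61B in the channel, was at 0.14, 0.16 and 0.24 in TC32 clones, against -0.26, -0.75 and -0.81 in parental arrays (0.79 ± 0.29, adjusted p = 0.130). HSPA5 was at -0.09, -0.08 and 0.24 in the clones, above all parental arrays (-0.15, -1.36 and -1.27), with a change of 0.95 ± 0.45 (adjusted p = 0.270). CALR, a lectin chaperone of glycoproteins, was at 0.35, 0.07 and 0.67 in the clones, against 0.27, -0.42 and -1.15 in parental arrays (0.80 ± 0.34, adjusted p = 0.204). Parental replicate 1 was the highest parental array in each of these genes. Without that array CALR had a change of 1.15 and an adjusted p of 0.0455. Leaving out parental replicate 1 and clone C4 along with 2 TC71 arrays gave 5 members past the threshold, with CALR, DERL2, HSP90B1 (the ER form of Hsp90) and HSPA5 besides SEC61B. The share of all genes that passed without these arrays is not given, so this count cannot be called an excess. PDIA4 was at -0.03, 0.30 and 0.56 in the clones, against 0.06, -0.61 and -0.83 in parental arrays. DNAJB9 was at 0.33, 0.52 and 0.56 in the clones, against -0.85, -0.30 and 0.52 in parental arrays.

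The lowest changes in TC32 clones were those of EDEM1, EDEM2, XBP1, ERO1A and UGGT1, none of which passed. EDEM1, a mannosidase-like protein that marks glycoproteins for degradation, was at -1.18, -0.37 and -0.08 in C1, C4 and CP, against -0.00, 0.10 and 0.55 in parental arrays (-0.76 ± 0.34, adjusted p = 0.223). Its relative EDEM2 was at -0.01, -1.86 and -0.06 in the clones, against 0.02, 0.20 and -0.01 in parental arrays. EDEM1 was thus lowest in C1 and EDEM2 in C4. XBP1 was at -0.27, -0.39 and -0.38 in the clones, against -0.14, 0.29 and 0.47 in parental arrays, with no overlap (-0.55 ± 0.36, adjusted p = 0.472). ERO1A was at 0.33, 0.14 and -0.52 in the clones, against -0.18, 0.82 and 0.31 in parental arrays, and UGGT1 at -0.07, 0.00 and -0.73, against 0.35, 0.02 and -0.21 in parental arrays. Both were lowest in clone CP. SDF2L1 was at 0.08, -1.47 and 0.01 in the clones, against -0.01, -0.77 and -1.15 in parental arrays, so that C4 alone lay below the parental arrays (0.18 ± 0.64). P4HB, protein disulfide isomerase itself, was at -1.07, -0.49 and 0.10 in the clones, against -0.14, -0.26 and -0.44 in parental arrays.

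In TC71 clones no member passed the test, against 1.09% of all genes, and 2 had an unadjusted p under 0.05, both higher (5.35% of all genes). OS9 was at 0.24, 0.16 and 0.05 in clones C3, C4A and C5, against -0.49, -0.20 and -0.36 in parental arrays. The groups did not overlap, with a change of 0.50 ± 0.12 (adjusted p = 0.0709), and OS9 passed when quantile normalization was applied again (0.59, adjusted p = 0.0108). DERL1 was the other, at -0.07, 0.26 and 0.22 in the clones, against -0.13, -0.21 and -0.19 in parental arrays (0.31 ± 0.12, adjusted p = 0.287). The median change was 0.16 (-0.01 over all genes), and 18 of 32 changes were above 0 (33.6% of all genes). In 8 members the clones lay above and in 2 below all parental arrays, against 5.72% and 35.5% of all genes. Changes over all genes were small (quartiles -0.09 and 0.07), so these shares count very small shifts too. The 18 of 32 therefore cannot be read as an excess.

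Clone C4A of TC71 held the highest values of several stress genes. ATF6 was at -0.13, 1.10 and 0.03 in C3, C4A and C5, against -0.32, -0.31 and -0.26 in parental arrays. HYOU1 was at -0.12, 0.86 and 0.47 in the clones, against -0.13, -0.37 and -0.35 in parental arrays. SEL1L was at 0.08, 0.74 and 0.12 in the clones, against -0.53, -0.29 and -0.50 in parental arrays, and HERPUD1 was at 0.07, 0.81 and -0.47, against -0.75, 0.01 and -0.59 in parental arrays. These 4 genes were the members at least 1 above the parental mean in C4A, and neither C3 nor C5 had such a member. Of all genes, 3.31% were that far above in C4A, 3.55% in C3 and 2.03% in C5. XBP1 was at 0.02, 0.70 and -0.33 in the clones. C4A was not high in all members, since SDF2L1 was at -0.19, -0.82 and 0.10 in the clones, against 0.05, -0.38 and -0.07 in parental arrays. EDEM2 was at -1.16, -0.29 and -0.36 in the clones, below the parental arrays (-0.00, -0.18 and 0.00), with a change of -0.54 ± 0.39 (adjusted p = 0.708). SEC23B, a coat protein of ER vesicles, was at 0.18, -0.47 and -0.70 in the clones, against 0.04, -0.02 and -0.13 in parental arrays. UGGT1 was at -0.74, -0.05 and 0.54 in the clones, spread on both sides of the parental arrays (-0.17, 0.19 and -0.00), and SSR3 was at -0.42, -0.08 and 0.39, against 0.12, 0.03 and -0.05.

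The change in clones did not differ between the lines past the threshold for any member, against 0.235% of all genes. SEC61B came closest, with a TC32 change minus TC71 change of 0.68 ± 0.15 (adjusted p = 0.0814). In TC71 it was at 0.00, 0.05 and -0.02 in clones, against 0.05, 0.07 and -0.00 in parental arrays. SEC61B passed this comparison when TC32 parental replicate 1 (adjusted p = 0.00196) or clone C1 (adjusted p = 0.0492) was left out, and when quantile normalization was applied again (adjusted p = 0.0391). EDEM1 (-1.10 ± 0.48, adjusted p = 0.366), OS9 (-0.53 ± 0.17, adjusted p = 0.223), DERL1 (-0.44 ± 0.16, adjusted p = 0.293) and KDELR3 (-0.66 ± 0.26, adjusted p = 0.332), a further retrieval receptor, also had an unadjusted p under 0.05, as did 11.9% of all genes.

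Resistant clones were also set against cells treated for 72 h. In TC32, 5 of 32 members passed (15.6%), against 14.8% of all genes, with 3 that rose (7.43% of all genes) and 2 that fell (7.4% of all genes). The 3 that rose serve translocation, but of 20 further translocation genes 0 rose and 2 fell. SPCS3 was at 0.10, -0.15 and 0.26 in clones, against -0.62, -0.86 and -0.87 in 72 h arrays (0.85 ± 0.13, limma adjusted p = 0.00137). SSR3 was at 0.43, 0.26 and -0.18 in clones, against -1.02, -1.33 and -1.17 in 72 h arrays (1.34 ± 0.34, adjusted p = 0.0172). SEC61B was at 0.08, 0.21 and 0.23 in clones, against -0.59, -0.69 and -0.60 in 72 h arrays, a rise of 0.80 ± 0.10 (adjusted p = 0.000486). All 3 were thus higher in every clone than in every treated array. Both genes that fell, OS9 and DERL1, belong to ER-associated degradation. DERL2 of the same role was higher in every clone than in every treated array (0.52). Of 13 further degradation genes 2 rose and 1 fell. Neither OS9 nor DERL1 passed when TC32 parental replicate 1, TC32 clone C4, TC71 parental replicate 2 and TC71 72 h replicate 2 were all left out. OS9 was at -0.22, -0.14 and -0.11 in clones, against 0.04, 0.17 and 0.61 in 72 h arrays (-0.43 ± 0.12, adjusted p = 0.0288). DERL1 was at -0.28, -0.46 and 0.05 in clones, against 0.10, 0.08 and 0.27 in 72 h arrays (-0.38 ± 0.12, adjusted p = 0.0441). The probe sets of DERL1 changed by -0.20 and -0.56. With the probe set of largest SD per gene, the limma adjusted p was 0.585 for DERL1 and 0.0665 for OS9. SPCS3 and SEC61B kept the call whichever single array was left out, while OS9, DERL1 and SSR3 lost it without single TC32 arrays (highest adjusted p 0.0919, 0.170 and 0.0655). These comparisons share the 72 h arrays with the comparison of treated and parental cells.

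In TC71 no member passed between clones and 72 h arrays, against 2.5% of all genes, while 8 members had an unadjusted p under 0.05, all lower in the clones (8.09% of all genes). The median difference was -0.30 and became -0.03 without 72 h replicate 2. SDF2L1 had the largest, -1.75 ± 0.64 (adjusted p = 0.207), with -0.19, -0.82 and 0.10 in clones, against 0.55, 3.09 and 0.70 in 72 h arrays. EDEM2 was at -1.16, -0.29 and -0.36 in clones, against 0.52, 0.41 and 0.33 in 72 h arrays (-1.03 ± 0.39, adjusted p = 0.221). Its 72 h arrays were close to each other, unlike those of SDF2L1.

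Members with an ERSE or ERSE-II in the window had the higher median after treatment of TC71, with overlapping ranges. The 8 carriers had a median change of 1.07 (0.13 to 1.83), and the 21 measured members with a promoter in the table and neither element had 0.45 (-0.29 to 1.03). On the single TC71 72 h arrays the carriers were at medians of 0.53, 2.11 and 0.57 above the parental mean, against 0.16, 0.90 and 0.20 for the others. In TC32 the medians after 72 h were 0.34 for carriers and 0.11 for the others. In the clones they were 0.12 and 0.11 in TC32, and 0.29 and -0.01 in TC71. Carriers were not alike, since CALR and HSP90B1 stood below the parental mean when replicates 1 and 3 of treated TC71 cells were averaged (-0.13 and -0.08). EDEM1, SEL1L, DNAJB9 and PDIA4 reached 1.17 to 2.09 on replicate 2 with neither element in these bases. These are counts of letters in a short window and say nothing of binding.

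**Figure D5:**
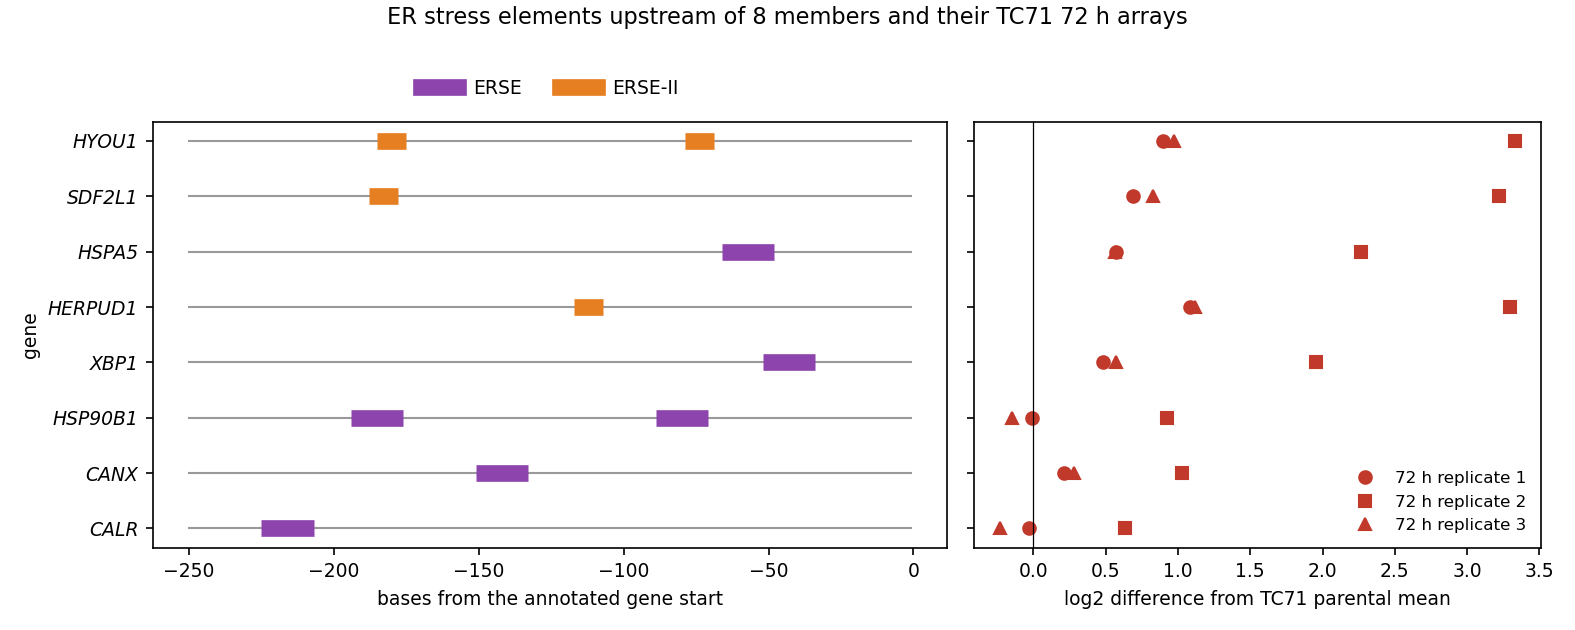
Positions of ERSE and ERSE-II in the 250 bases before the start of 8 members (left, in bases from the start) and the log2 difference of each TC71 72 h array from the TC71 parental mean (right). HYOU1, SDF2L1 and HERPUD1 lie furthest right on replicate 2, and CALR and HSP90B1 lie at or below 0 on replicates 1 and 3.

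Beside the members, 82 further genes of the same processes were measured. After 72 h in TC32, 1 rose and none fell, against 2.2% of all genes. It was DNAJC3, a co-chaperone that also inhibits PERK, at 0.92, 1.64 and 1.46 in 72 h arrays, against 0.36, -0.00 and -0.31 in parental arrays (1.33 ± 0.23, limma adjusted p = 0.0130). DNAJC3 was not higher in treated TC71 cells, with 0.00, 0.06 and -0.07 in 72 h arrays, against 0.47, -0.18 and 0.36 in parental arrays, and the TC32 change minus the TC71 change was 1.54 ± 0.33 (adjusted p = 0.0760). After 72 h in TC71 none of the 82 passed, and 22 were higher at an unadjusted p under 0.05 (5.35% of all genes) and 2 lower, with a median of 0.23. The ER folding genes led again, with changes of 2.05 ± 0.66 for the oxidase ERO1B (limma adjusted p = 0.242) and 1.63 ± 0.49 for CRELD2 (adjusted p = 0.214). ERO1B was at 0.01, 3.77 and 0.95 in 72 h arrays, against -0.22, -0.59 and -0.62 in parental arrays, so replicate 2 was far above the others. CRELD2, which is induced by ER stress, was at 0.71, 2.87 and 0.73 in 72 h arrays, against -0.11, -0.10 and -0.35 in parental arrays, with replicate 2 again the highest treated array. SSR2, of the same complex as SSR3, differed by 0.70 ± 0.12 (adjusted p = 0.0531).

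In TC32 clones 5 of the 82 rose and 4 fell, against 6.31% of all genes. The disulfide isomerase PDIA5 rose by 0.84 ± 0.19 (limma adjusted p = 0.0191), the degradation gene FAF2 by 0.70, and SAR1A and PREB, which start vesicle budding at the ER, by 0.60 and 0.68. SEC11A, the catalytic subunit of signal peptidase, fell by 1.02 ± 0.21 (adjusted p = 0.0149), SSR4 by 0.91, ERP29 by 0.80 and BCAP31 by 0.63. SSR4 and SEC11A thus moved opposite to SEC61B, although all serve protein entry into the ER. In TC71 clones 1 of the 82 passed, against 1.09% of all genes. SRPRA, the receptor that brings ribosomes to the ER, rose by 1.09 ± 0.17 (adjusted p = 0.0110). Against 72 h arrays, 7 of the 82 rose (7.43% of all genes) and 6 fell (7.4% of all genes) in TC32 clones, among them KDELR1 (1.41 ± 0.30) and PDIA5 (1.27 ± 0.18), and DNAJC3 (-1.37 ± 0.23), SSR4 (-1.36 ± 0.21) and FKBP11 (-1.35 ± 0.33), a folding isomerase. In TC71, 4 rose and 4 fell against 72 h arrays (2.5% of all genes passed), with SRPRA (1.01 ± 0.17) and CREB3 (-1.09 ± 0.26), an ER-anchored transcription factor, the furthest apart.

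Genes of the integrated stress response moved beside these changes. After 72 h in TC71 all 31 measured genes of that list were above 0 (64.1% of all genes), with a median of 1.90. Of these, 27 had an unadjusted p under 0.05 (5.35% of all genes), and none passed the adjusted threshold. In TC32 clones against 72 h arrays 6 of the 31 fell (7.4% of all genes), with changes from -1.88 to -0.91. Their medians relative to the parental mean were 1.56, 2.07 and 1.63 on TC71 72 h replicates 1, 2 and 3, so replicate 2 stood less apart here than in the ER genes. Clone C4A was at 2.02, beside 0.19 in C3 and -0.11 in C5, against -0.16, 0.35 and -0.19 in parental arrays. In TC32 the medians were -0.16, 0.70 and 0.88 in 72 h arrays and -0.70, -0.68 and -0.77 in clones, against -1.01, 0.24 and 0.63 in parental arrays. Cytosolic heat shock genes had median changes of 0.00 in TC32 and -0.15 in TC71 after 72 h, and none of the 19 passed in either line. Markers of plasma cells, which are rich in ER, had median changes between -0.02 and 0.01 in the 6 comparisons within a line, and no gene of the 8 measured passed. Fibroblast markers were mixed in TC32, with median changes of -0.12 after 72 h and 0.00 in clones against 72 h arrays. Their changes in clones against 72 h arrays ran from -1.64 to 3.67. FAP fell by 3.79 ± 0.55 after 72 h (limma adjusted p = 0.00387), and FAP and LUM rose by 3.45 and 3.67 in clones against 72 h arrays, while no other of the 8 measured passed in these comparisons. None of the 7 immune and blood cell markers passed, with highest changes of 2.57 in TC32 clones and 1.75 in TC71 clones against parental arrays. The part of the integrated stress response and of these markers in the ER gene values was not tested.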

How the data were processed

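Total RNA was hybridised to 18 Affymetrix HG-U133A 2.0 arrays, 3 in each of 6 groups, with 3′ IVT Express labelling, per the labels' protocols. The deposited values are log2, extracted and normalized by the authors in GeneSpring GX with default settings, per the labels' design text, and in the files every probe set has a median of 0 over the 18 arrays. The table therefore keeps no absolute level or background, and no filter on dim probe sets could be applied. The deposited tables of log2 values were identical, with a largest difference of 0.

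Of 22277 probe sets, 20374 were assigned to a single gene. Left out were 62 control probe sets, 583 with several genes and 1258 with none. Symbols were updated through Entrez identifiers with RefSeq (GRCh38.p14), which matched 20226 probe sets. Probe sets were averaged to 12750 genes, of which 8125 had 1 probe set. A linear model of 6 group means was fitted to all genes with limma 3.58.1 in R 4.3.3 (12 residual and 0.827 prior degrees of freedom). For each of 8 comparisons p-values were adjusted over all genes by Benjamini-Hochberg, with a threshold of 0.05. The procedure was tested on simulated data. Tables were handled in Python 3.11.15 with pandas 2.3.3. The number of arrays limits the precision, and intervals are given as SE.

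The 35 members and the other gene lists were chosen with earlier results of these data known. Values on every array were given for members past the threshold and for the 5 highest and 5 lowest changes in each comparison with parental cells. Of the other pathway lists, up to 3 genes past the threshold per list, or else up to 2 with the largest change, could be named. Some items are not reported here. DNAJC3 in TC71 was added after its TC32 value was seen, to set both lines side by side. Promoter motifs were counted on both strands of the 250 bases before each gene start in the RefSeq promoter table. Alternatives were another quantile normalization, centring, probe set choice, variance model, array choice and the replicate block.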

Additional observations from a re-analysis of the deposited data

Results flagged for a closer look

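SPCS2, a subunit of signal peptidase like SPCS3, had probe sets shared with another locus and entered no comparison, so it was looked at apart. The more responsive of its shared probe sets was higher by 0.35 on the log2 scale in TC71 72 h arrays than in TC71 parental arrays, which is a signal outside the genes tested. The values were 0.15, 0.75 and 0.08 in TC71 72 h arrays, against -0.07, 0.01 and -0.01 in parental arrays, and replicate 2 was again the highest. The other shared probe set was higher by 0.20, with overlap between the groups. It was at 0.09, 0.68 and 0.02 in TC71 72 h arrays, against 0.02, 0.23 and -0.05 in parental arrays. How much of the signal came from either locus was not tested.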

How the results depend on the processing

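The number of members past the threshold and their median change were recomputed under each setting. The shares of all genes past the threshold in these settings are not given, so no count here can be called an excess. No member that passed changed sign, while 4 of the 8 median changes crossed 0 when single arrays were left out (TC32 72 h, TC32 clones, TC32 clones against 72 h and the line difference in clones). For 72 h against parental in TC32 the count of 1 (SPCS3) became 0 without probe sets that may cross-hybridise (_x_at and _s_at), with the probe set of largest SD, at an adjusted p under 0.01 and without the 4 arrays that stood apart (TC32 parental replicate 1, TC71 parental replicate 2, TC71 72 h replicate 2 and TC32 clone C4). Leaving out single arrays gave counts of 0 to 2 and medians of -0.032 to 0.15. In TC71 the count was 5 when quantile normalization was applied again, and leaving out single arrays gave counts of 0 to 0 and medians of 0.22 to 0.54. For TC32 clones the count was 0 in a fit of the compared arrays alone and 5 without the 4 arrays, the median was 0.21 without _x_at and _s_at probe sets, and single arrays gave counts of 1 to 2 and medians of -0.020 to 0.18. For TC71 clones the count was 1 with quantile normalization, the median was 0.21 with the probe set of largest SD and 0.068 without the 4 arrays, and single arrays gave medians of 0.066 to 0.21. For TC32 clones against 72 h the count was 3 with quantile normalization, without _x_at and _s_at probe sets, with the probe set of largest SD and in the compared arrays alone, and 2 at an adjusted p under 0.01. Without the 4 arrays it was 6, where OS9 and DERL1 no longer passed and CALR (limma adjusted p = 0.0388), DERL2 (0.00557) and KDELR2 (0.0299) did, all higher. Its median was 0.23 without _x_at and _s_at probe sets, and single arrays gave counts of 2 to 5 and medians of -0.04 to 0.06. For TC71 clones against 72 h single arrays gave counts of 0 to 1 (SEC23B, -0.94, without clone C3) and medians of -0.45 to -0.027. The line difference after 72 h had a median of -0.064 without the 4 arrays and of -0.60 to -0.090 without single arrays. The line difference in clones had a count of 1 (SEC61B) with quantile normalization and without the 4 arrays, a median of 0.20 without _x_at and _s_at probe sets and 0.15 without the 4 arrays, and counts of 0 to 1 and medians of -0.013 to 0.11 without single arrays. The cause of these shifts was not tested, except that fewer arrays and fewer probe sets enter by construction. Parental and 72 h replicates share numbers. After subtraction of group means, same-numbered arrays correlated at 0.23, 0.01 and 0.37 in TC32 and -0.02, 0.02 and 0.02 in TC71. Differently numbered arrays ran from -0.37 to 0.11 in TC32 and from -0.03 to 0.04 in TC71. In TC32 the pairs numbered 1 and 3 were thus the highest, and whether the numbers pair the arrays was not settled. With the replicate number as a block, 1 member passed in TC32, 0 in TC71 and 0 in the line difference. Averaging TC71 72 h replicates 1 and 3, chosen after seeing the data, gave a median of 0.52 in TC71 and a count of 4 for TC32 clones against 72 h.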
